A study of Homo sapiens with 6 samples.

Results

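The genes described here encode 10 subunits of the Polycomb repressive complexes, EZH2, EZH1, EED, SUZ12, RBBP4, RBBP7 and JARID2 of PRC2 and RNF2, BMI1 and CBX7 of PRC1. They were listed by name, with earlier results of these data known, and all 10 were found among the 58381 genes of the count table and all 10 passed its filter on low counts, which left 17219 genes. Their RNA was sequenced in MOLM-13 cells exposed to 5 µM DB2115 and in MOLM-13 cells exposed to vehicle, 0.001% DMSO, each for 20 h. MOLM-13 is 1 established line of human acute myeloid leukaemia; it carries the MLL-AF9 fusion and a duplicated stretch of FLT3, so cells of both groups carry these lesions. The series title names the transcription factor PU.1, and DB2115 is known from the labels only by its code name.

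Each group has 3 libraries in the labels. The last column of each was nearly the sum of the other 2, which leaves 2 libraries per group, called A and B. Total counts were 40067286 and 39647758 in DB2115 and 36547900 and 42446253 in vehicle. The labels do not say whether A and B were separate cultures. The p-values therefore cover the spread between A and B, possibly a technical one. All 10 markers listed for the myeloid line were detected, 6 called higher and 3 lower, where 32.7% and 31.3% of all genes tested were. Their summed level was 793 and 749 CPM (read counts scaled to the library's TMM-adjusted total) in DB2115, against 1272 and 1234 CPM in vehicle. The 6 called higher were CD68 (2.28-fold), MEIS1 (1.63-fold), CD33 (1.56-fold), MLLT3 (1.45-fold), HOXA9 (1.32-fold) and KMT2A (1.26-fold). The 3 called lower were PTPRC, FLT3 and LYZ. The pan-leukocyte phosphatase PTPRC had 35.2 and 32.3 CPM in DB2115 and 205 and 203 CPM in vehicle. FLT3 had 138 and 140 CPM in DB2115 and 441 and 422 CPM in vehicle. LYZ had 91.7 and 84.7 CPM in DB2115 and 215 and 204 CPM in vehicle. The transcript of PU.1 itself, SPI1, had 210 and 171 CPM in DB2115 and 187 and 177 CPM in vehicle. The SPI1 values of the groups overlapped, and SPI1 was not called. The 14 markers of T, B, erythroid, epithelial and fibroblast cells summed to 72.9 and 80.4 CPM in DB2115 and 15.5 and 10.6 CPM in vehicle, with the T cell marker CD2 at 0 in all 4 libraries. Their part in the results below was not tested. In bulk RNA, fewer cells of a type and less RNA per cell cannot be told apart.

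Polycomb complexes hold developmental genes silent through histone marks. PRC2 methylates lysine 27 of histone H3 through its catalytic subunit EZH2 or EZH1, which is active only when bound to EED and SUZ12. PRC1 attaches ubiquitin to histone H2A through a RING ligase, RNF2 or its paralog RING1, paired with 1 PCGF protein such as BMI1, and its CBX subunits read the mark that PRC2 leaves. In blood, EZH2 and BMI1 are known for their roles in self-renewal of stem cells and leukaemia cells.

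With DB2115, CBX7 rose 2.86-fold and JARID2 1.32-fold, whereas EED fell 1.43-fold and SUZ12 1.29-fold, and these 4 calls held in each of 12 other settings. EZH2 was called 1.11-fold higher and BMI1 1.11-fold lower, calls that several settings did not give. EZH1, RBBP4, RBBP7 and RNF2 were not called. In all, 3 members were called higher, where 32.7% of all genes tested were, and 3 lower, where 31.3% were. The 6 members called make up 60% of the 10, close to the 64.1% called in either direction among all genes tested (edgeR's quasi-likelihood test, Benjamini-Hochberg adjusted p under 0.05). In 7 of the 10 the values of the groups did not overlap, against 81.3% of all genes. The median log2 fold change of the members was 0.02, against 0.03 over all genes tested, and the median of its absolute size was 0.15, against 0.56 over all genes. The members are described, not tested, as a group.

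**Figure D1:**
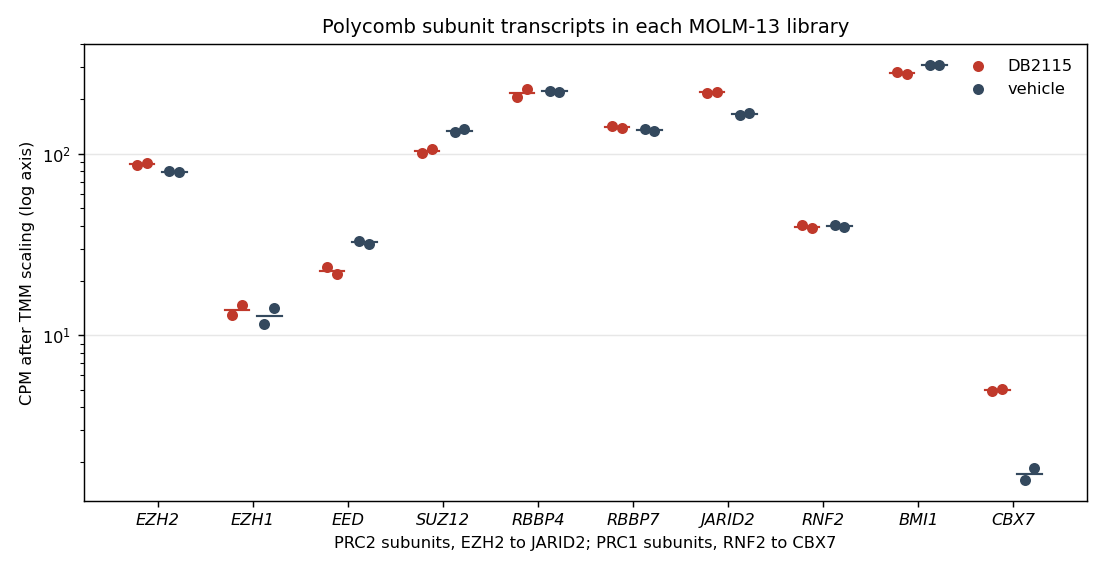
Transcript level of the 10 Polycomb subunits in each library, in CPM after TMM scaling on a log axis, with DB2115 in red to the left of vehicle in dark blue. Points are single libraries (n = 2 per group) and short lines are group means; CBX7, at 4.97 CPM in DB2115 and 1.73 CPM in vehicle, is the lowest member and the only one that differs more than 2-fold.

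EZH2 (chromosome 7, 148807383 to 148884321, minus strand, GRCh38) encodes the main methyltransferase of dividing cells. It had 86.5 and 89.2 CPM in DB2115, against 79.8 and 78.7 CPM in vehicle. The averages were 87.9 ± 1.92 CPM in DB2115 and 79.2 ± 0.733 CPM in vehicle (SD, n = 2 each). The groups did not overlap, but the difference was small, at a log2 fold change of 0.15 (SE 0.06, edgeR adjusted p = 0.0485). The call was lost at adjusted p = 0.106 with DESeq2 and at between 0.0906 and 0.268 when any 1 library was left out. EZH1 (chromosome 17, 42700275 to 42745049, minus strand), the paralog that prevails in resting cells, had 12.9 and 14.7 CPM in DB2115 and 11.5 and 14.1 CPM in vehicle. Its groups overlapped (log2 fold change 0.11, SE 0.12, edgeR adjusted p = 0.453).

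EED (chromosome 11, 86244544 to 86278813, plus strand) encodes the subunit of PRC2 that binds methylated histone H3 and stimulates the enzyme. It had 23.7 and 21.6 CPM in DB2115, against 33.2 and 31.7 CPM in vehicle. The averages were 22.6 ± 1.46 CPM in DB2115 and 32.4 ± 1.04 CPM in vehicle (SD, n = 2 each). Both DB2115 values lay below both vehicle values, and the log2 fold change was -0.52 (SE 0.08, edgeR adjusted p = 0.000101). The promoters of CBX7, which had the largest rise of the 10, and of EED, which had the largest fall, are shown from RefSeq (GRCh38.p14), each from 250 bases before to 50 after the annotated start of transcription. The CBX7 window lies on the minus strand at chr22:39152631-39152930 and the EED window on the plus strand at chr11:86244503-86244802. The gene position given above for EED starts at 86244544, upstream of the RefSeq start used here. By that position most of the EED window lies inside the gene, and sequence further upstream was not searched.
CBX7: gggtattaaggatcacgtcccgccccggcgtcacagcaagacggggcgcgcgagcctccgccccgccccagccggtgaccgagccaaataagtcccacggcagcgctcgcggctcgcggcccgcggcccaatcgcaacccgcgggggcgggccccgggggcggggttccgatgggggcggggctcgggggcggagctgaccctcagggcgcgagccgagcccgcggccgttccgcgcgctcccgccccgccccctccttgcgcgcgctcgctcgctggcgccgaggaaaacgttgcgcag
EED: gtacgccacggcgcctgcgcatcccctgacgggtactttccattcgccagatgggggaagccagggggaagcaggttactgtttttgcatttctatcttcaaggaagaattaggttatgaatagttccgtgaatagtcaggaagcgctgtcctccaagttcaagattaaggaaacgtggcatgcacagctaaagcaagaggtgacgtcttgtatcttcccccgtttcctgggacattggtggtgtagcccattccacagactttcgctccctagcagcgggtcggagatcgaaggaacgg
Neither window holds any of the 7 motifs searched, so no letter is in capitals. G and C make up 77.7% of the CBX7 window and 52.3% of the EED window. The median was 73.3% over the 15 windows of the 10 members and 58.7% over all 35116 promoters in the table.

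SUZ12 (chromosome 17, 31937018 to 32001045, plus strand), the scaffold on which PRC2 assembles, had 101 and 106 CPM in DB2115 and 131 and 136 CPM in vehicle. The averages were 104 ± 3.56 CPM in DB2115 and 134 ± 3.85 CPM in vehicle (SD, n = 2 each). The groups did not overlap, at a log2 fold change of -0.36 (SE 0.06, edgeR adjusted p = 0.000171). A copy of part of the gene, the pseudogene SUZ12P1, had 17.3 and 19.0 CPM in DB2115 and 23.9 and 27.6 CPM in vehicle (log2 fold change -0.51, edgeR adjusted p = 0.000427). Reads of a gene and such a copy may be exchanged, so the value of SUZ12 carries that uncertainty.

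Within each library, EZH1 reads numbered 0.149 and 0.165 per EZH2 read in DB2115 and 0.145 and 0.179 in vehicle. The ratios of the groups overlapped, with a difference of -0.03 in the mean log2 ratio (two-sided exact permutation p = 1, where 2 libraries against 2 cannot go below 0.333). EZH2 reads per EED read numbered 3.66 and 4.13 in DB2115 and 2.41 and 2.48 in vehicle, and EZH2 reads per SUZ12 read 0.855 and 0.840 in DB2115 and 0.610 and 0.578 in vehicle. These ratios do not depend on the scaling between libraries. In both pairs the DB2115 values lay above the vehicle values, which the CPM values given above for EZH2, EED and SUZ12 already imply.

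The promoters of EZH2 and SUZ12 are shown because each holds a form of the letters known from binding sites of E2F factors, which drive genes of DNA replication, while their transcripts were called in opposite directions. EZH2 has a pair of windows in the table, of which the one with the match is given. The EZH2 window lies on the minus strand at chr7:148884242-148884541 and the SUZ12 window on the plus strand at chr17:31936757-31937056, with the matched letters in capitals.
EZH2: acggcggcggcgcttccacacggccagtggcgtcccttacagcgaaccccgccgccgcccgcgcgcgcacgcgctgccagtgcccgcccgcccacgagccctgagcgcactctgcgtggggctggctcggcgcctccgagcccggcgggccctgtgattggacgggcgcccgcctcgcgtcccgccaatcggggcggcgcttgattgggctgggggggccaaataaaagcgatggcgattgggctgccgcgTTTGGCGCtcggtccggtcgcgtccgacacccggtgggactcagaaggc
SUZ12: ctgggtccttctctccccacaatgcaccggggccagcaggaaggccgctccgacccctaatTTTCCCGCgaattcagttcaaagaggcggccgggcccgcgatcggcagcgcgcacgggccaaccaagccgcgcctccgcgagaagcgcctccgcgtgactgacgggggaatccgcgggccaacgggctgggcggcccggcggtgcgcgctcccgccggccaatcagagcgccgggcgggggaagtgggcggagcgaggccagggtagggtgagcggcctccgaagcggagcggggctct
The letters searched for E2F, on both strands, were TTTCCCGC (in 1.63% of all 35116 promoters), TTTGGCGC (0.652%), TTTGCCGC (0.607%) and TTTCGCGC (0.515%), and any of them stood in 3.31% of promoters. They were found for EZH2, SUZ12 and EZH1, 3 of the 10 members, which have 15 windows in all. The shares of promoters count windows, not genes, so the 2 measures are unlike. Median G and C was 73.3% in the member windows and 58.7% in all promoters, and its part in the matches was not tested. The MYC and MAX motif CACGTG (7.26% of promoters) was found for RBBP4 and BMI1, and the ETS-family letters CCGGAAGT (4.14%) for RBBP7. The PU.1-type letters GAGGAAGT (2.59%) were found in no member's window. A match describes these letters and is not evidence of binding.

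RBBP4 (chromosome 1, 32651142 to 32686211, plus strand) and RBBP7 (chromosome X, 16839283 to 16870414, minus strand) encode histone-binding WD40 proteins that PRC2 shares with other chromatin complexes. RBBP4 had 205 and 226 CPM in DB2115 and 220 and 220 CPM in vehicle, with overlapping groups (log2 fold change -0.03, SE 0.06, edgeR adjusted p = 0.686). RBBP7 had 142 and 139 CPM in DB2115 and 137 and 134 CPM in vehicle. The RBBP7 values did not overlap, but the difference was not called (log2 fold change 0.05, SE 0.06, edgeR adjusted p = 0.448). It was called at 0.15 with upper-quartile factors, with total counts alone and at 0.14 when 1 CPM in 3 libraries was required. RBBP4 reads per RBBP7 read numbered 1.45 and 1.62 in DB2115 and 1.61 and 1.64 in vehicle, with overlapping groups (two-sided exact permutation p = 0.667). On the opposite strand, SYNC covers 1706 of the 9470 exon bases of RBBP4 with 38 and 22 counts in DB2115 and none in vehicle, few beside the 8377 and 9342 counts of RBBP4 in DB2115 and its 7739 and 9066 counts in vehicle. The processed pseudogene RBBP4P2 had 11 and 45 counts in DB2115 and 18 and 28 counts in vehicle, and RBBP4P1 had 9 and 27 counts in DB2115 and 22 and 16 counts in vehicle. TXLNG shares 2.42% of the RBBP7 exon bases and had a mean of 17.1 CPM in DB2115 and 45.5 CPM in vehicle.

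JARID2 (chromosome 6, 15246296 to 15522040, plus strand) encodes an accessory subunit that helps PRC2 to its targets. It had 216 and 219 CPM in DB2115, against 163 and 167 CPM in vehicle. The averages were 217 ± 2.11 CPM in DB2115 and 165 ± 3.0 CPM in vehicle (SD, n = 2 each). Both DB2115 libraries lay above both vehicle libraries, at a log2 fold change of 0.40 (SE 0.06, edgeR adjusted p = 4.74e-05). JARID2 reads per SUZ12 read numbered 2.13 and 2.06 in DB2115 and 1.25 and 1.23 in vehicle.

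The other accessory subunits of PRC2 moved in both directions, all 7 tested of 8 listed being called, where 64.1% of all genes were. LCOR, PHF1 and PHF19 were higher, and AEBP2, MTF2, LCORL and EPOP lower, while EZHIP had no count in any library. EPOP, which links PRC2 to elongin, fell the most, with 26.5 and 26.2 CPM in DB2115 and 56.7 and 55.7 CPM in vehicle (log2 fold change -1.09, SE 0.07, edgeR adjusted p = 1.97e-08). Per kilobase of exon, JARID2 made up 42.9% and 43.1% of the accessory transcripts in DB2115, against 32.6% and 33.3% in vehicle. EPOP made up 8.53% and 8.35% in DB2115, against 18.3% and 18% in vehicle.

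**Figure D2:**
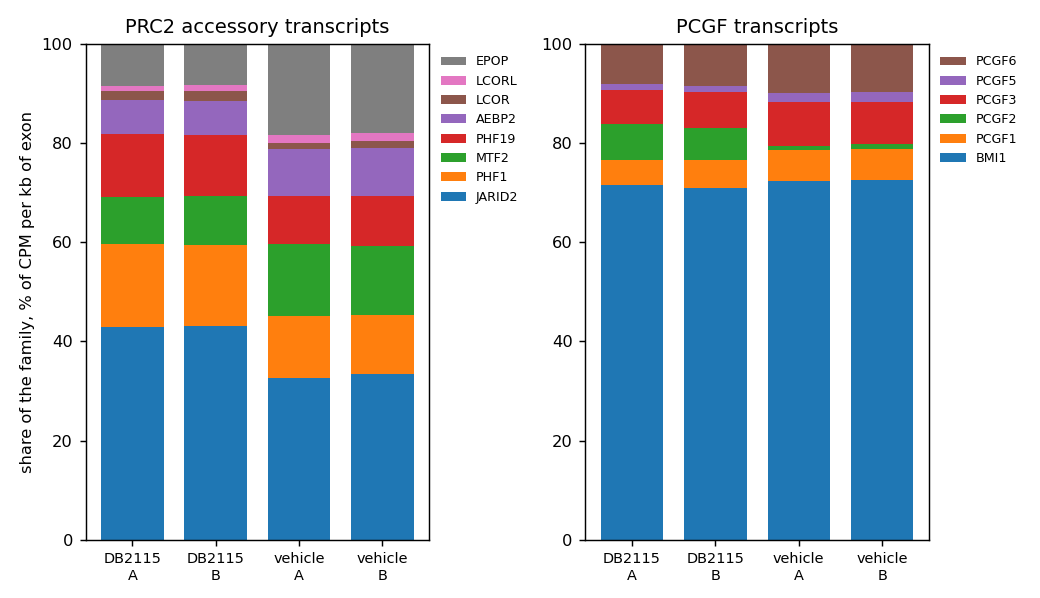
Share of each PRC2 accessory subunit and each PCGF paralog in its family in each library, as percent of the family's CPM per kilobase of exon, DB2115 libraries to the left of vehicle libraries. JARID2 takes 43.0% of the accessory transcripts in DB2115 and 33.0% in vehicle, PCGF2 takes 6.88% of PCGF transcripts in DB2115 and 0.896% in vehicle, and BMI1 makes up most of the PCGF bars in all 4 libraries.

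RNF2 (chromosome 1, 185045364 to 185102608, plus strand), the RING1B ligase of PRC1, had 40.2 and 39.0 CPM in DB2115 and 40.5 and 39.5 CPM in vehicle. The groups overlapped, and the log2 fold change was -0.01 (SE 0.07, edgeR adjusted p = 0.877). Its paralog RING1 rose, with 70.7 and 74.0 CPM in DB2115 and 58.7 and 56.3 CPM in vehicle (log2 fold change 0.33, SE 0.07, edgeR adjusted p = 0.000618). Per kilobase of exon, RNF2 made up 20.3% and 19.0% of the transcripts of both ligases in DB2115 and 23.5% and 23.8% in vehicle.

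BMI1 (chromosome 10, 22321211 to 22331484, plus strand), also known as PCGF4, had 280 and 274 CPM in DB2115, against 309 and 308 CPM in vehicle. The groups did not overlap, at a log2 fold change of -0.16 (SE 0.06, edgeR adjusted p = 0.0282). The difference was not called with upper-quartile factors, where it was -0.06 (adjusted p = 0.354), nor when DB2115 library B, vehicle library A or vehicle library B was left out (adjusted p = 0.0889, 0.115 and 0.0948). The read-through gene COMMD3-BMI1 shares 23.3% of the BMI1 exon bases and had 20 and 11 counts in DB2115 and 13 and 12 counts in vehicle, beside 11455 and 11346 counts of BMI1 in DB2115 and 10839 and 12737 in vehicle.

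Among the other PCGF genes, PCGF2, also known as MEL18 and the closest paralog of BMI1, rose the most of all 52 Polycomb subunits tested. It had 23.3 and 20.6 CPM in DB2115, against 2.76 and 3.49 CPM in vehicle. Its log2 fold change was 2.80 (SE 0.13, edgeR adjusted p = 1.44e-09), 6.97-fold higher. PCGF1, PCGF3, PCGF5 and PCGF6, which pair with RNF2 mostly in variant PRC1, were all lower, with log2 fold changes between -0.85 and -0.36. BMI1 reads per PCGF2 read numbered 12 and 13.3 in DB2115 and 112 and 88.5 in vehicle. Per kilobase of exon BMI1 remained the most abundant PCGF transcript, at 71.5% and 71.0% of the family in DB2115 and 72.5% and 72.6% in vehicle.

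CBX7 (chromosome 22, 39120167 to 39152674, minus strand) encodes a chromodomain subunit of canonical PRC1. It had 4.91 and 5.02 CPM in the DB2115 libraries, against 1.59 and 1.86 CPM in the vehicle libraries. The groups did not overlap, and its level averaged 4.97 ± 0.0795 CPM in DB2115 and 1.73 ± 0.191 CPM in vehicle (SD, n = 2 each). Its log2 fold change was 1.52 (SE 0.20, edgeR adjusted p = 2.17e-05). It rests on few reads, 201 and 208 counts in DB2115 and 56 and 77 counts in vehicle. An unnamed antisense gene overlaps 17.9% of the CBX7 exon bases. That gene had 23 and 22 counts in DB2115 and 2 and 6 counts in vehicle, and without knowledge of whether counting used the strand, its reads and those of CBX7 cannot be told apart in the shared stretch.

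Among other CBX genes of canonical PRC1, CBX6 was lower, with 95.3 and 104 CPM in DB2115 and 120 and 129 CPM in vehicle (log2 fold change -0.32, SE 0.07, edgeR adjusted p = 0.000888). CBX7 reads per CBX6 read numbered 0.0515 and 0.0485 in DB2115 and 0.0133 and 0.0145 in vehicle. CBX2 and CBX8 were not called, with log2 fold changes of 0.14 and -0.19.

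Ordered by mean CPM per kilobase of exon, the levels in DB2115 were 64.7 for BMI1, 36.2 for JARID2, 22.7 for RBBP4, 19.4 for EZH2, 19.0 for RBBP7, 15.8 for SUZ12, 9.72 for RNF2, 3.22 for EED, 1.98 for EZH1 and 0.666 for CBX7. In vehicle they were 72.0 for BMI1, 27.5 for JARID2, 23.2 for RBBP4, 20.4 for SUZ12, 18.3 for RBBP7, 17.5 for EZH2, 9.82 for RNF2, 4.62 for EED, 1.83 for EZH1 and 0.232 for CBX7. EZH2 thus stood above SUZ12 in DB2115 and below it in vehicle. Neighbours in these orders did not overlap between libraries, except EZH2 and RBBP7 in DB2115. Exon length here is that of all annotated exons together, so a gene with long, little-used exons is placed too low.

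Of 45 other Polycomb subunits listed, 42 were tested, of which 11 rose and 21 fell, with a median log2 fold change of -0.21 against 0.03 over all genes tested. The 32 called make up 76.2% of those tested, beside 64.1% of all genes. Variant PRC1 had 9 members lower and 3 higher of 13 tested, beside 31.3% lower and 32.7% higher among all genes. The H2A deubiquitinase, which removes the mark of PRC1, had 1 lower and 2 higher of 7 tested. These subgroups are small, and the difference between them was not tested. Beside PCGF2, the largest rises were those of BCORL1, a corepressor of variant PRC1 (log2 fold change 0.86, SE 0.10, edgeR adjusted p = 8.9e-06), and PHC2, which polymerises PRC1 (0.64, SE 0.06, adjusted p = 1.89e-06). The largest falls were those of SCML2, EPOP and FBRSL1. SCML2, a PRC1-associated protein, had 4.18 and 3.74 CPM in DB2115, against 15.1 and 15.1 CPM in vehicle (log2 fold change -1.93, SE 0.12, edgeR adjusted p = 2.1e-08). FBRSL1, related to AUTS2, had 145 and 138 CPM in DB2115 and 266 and 267 CPM in vehicle (log2 fold change -0.92, edgeR adjusted p = 2.3e-08).

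**Figure D3:**
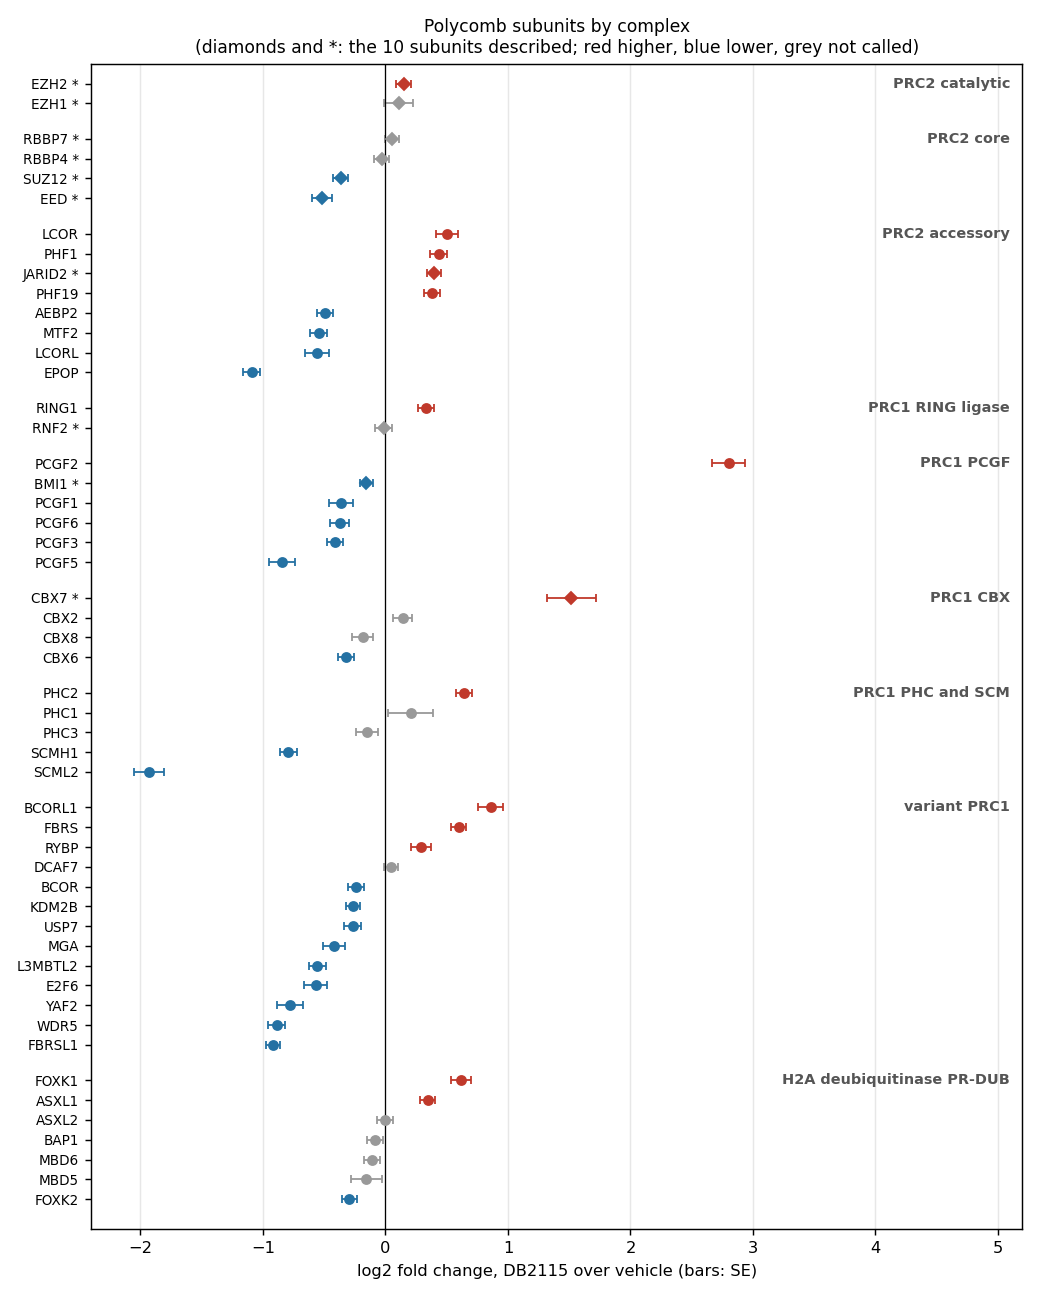
Log2 fold change of DB2115 over vehicle with its standard error for Polycomb subunits that were tested, grouped by complex (diamonds mark the 10 subunits described, circles the others, red called higher, blue called lower, grey not called). PCGF2 at 2.80 and SCML2 at -1.93 lie at the ends, CBX7 at 1.52 is the second highest, and the 9 remaining members lie between -0.52 and 0.40.

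Of 10 genes whose products oppose Polycomb, all tested, 4 rose and 2 fell, with a median log2 fold change of 0.11. The 60% called lie near the 64.1% called among all genes. The H3K27 demethylases differed in direction. KDM6B rose, with 80.3 and 85.1 CPM in DB2115 and 56.8 and 57.2 CPM in vehicle (log2 fold change 0.54, SE 0.06, edgeR adjusted p = 9.01e-06). KDM6A was called lower, with 19.8 and 18.3 CPM in DB2115 and 21.9 and 22.6 CPM in vehicle (-0.22, SE 0.09, edgeR adjusted p = 0.0385), a call lost at 0.111 with DESeq2 and at 0.207 with upper-quartile factors. The ATPases of SWI/SNF, which evict Polycomb proteins, had log2 fold changes of 0.67 for SMARCA2 and -0.42 for SMARCA4 (edgeR adjusted p = 9.7e-07 and 0.000184). SETD2, which methylates lysine 36 of histone H3, rose by 0.50 on the log2 scale (edgeR adjusted p = 2.9e-05).

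EZH2 and EED are known as genes that E2F factors control, so E2F and replication genes are given beside them. Of 20 tested, 13 fell and 3 rose, with a median log2 fold change of -0.35. Among all genes, 31.3% fell and 32.7% rose. E2F8 fell to 19.8 and 20.6 CPM in DB2115, against 72.7 and 70.9 CPM in vehicle (log2 fold change -1.83, edgeR adjusted p = 2.33e-10). Cyclin E1, encoded by CCNE1, and thymidylate synthase, encoded by TYMS, had log2 fold changes of -1.24 and -0.84 (edgeR adjusted p = 3.31e-06 and 1.29e-07). The proliferation marker MKI67 rose (log2 fold change 0.69, edgeR adjusted p = 2.26e-06), as did the topoisomerase TOP2A (0.59, adjusted p = 1.47e-06), and E2F2 was called at 0.21 (adjusted p = 0.0282, not called in 5 of 12 other settings). The log2 fold changes of EED, -0.52, and of EZH2, 0.15, both lay within the range of the 20 genes, -1.83 to 0.69. The part of the E2F and replication genes' change in the values of EED and EZH2 was not tested.

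Most genes known as Polycomb targets stayed near silence in both groups. Of 51 listed, 33 were too low to test, 12 of them without a count in any library. CDKN2A, the classical target of BMI1 and CBX7, had 0 and 1 counts in DB2115 and 1 and 1 counts in vehicle. CDKN2B had none, which allows up to 0.0854 CPM in a library (3 counts, counting error only). Whether the line retains CDKN2A and CDKN2B is not in the labels. In RNA counts, a silent gene and one missing from the genome cannot be told apart. Of 18 tested, 9 rose and 4 fell, with a median log2 fold change of 0.36, but a gene without reads in vehicle had to be higher in DB2115 to pass the filter. The 72.2% called stand beside 64.1% among all genes. The median depended on the filter and was 0.12 with 1 CPM required in 3 libraries and 0.99 with no filter, which moved the median of all genes to 0.12. CDKN1C, the cell cycle inhibitor p57, rose to 19.5 and 24.2 CPM in DB2115, against 0.541 and 0.387 CPM in vehicle (log2 fold change 5.56, SE 0.20, edgeR adjusted p = 1.17e-10). SIX2, a homeobox gene of the kidney, had 1.81 and 1.52 CPM in DB2115 and 0.199 and 0.484 CPM in vehicle (log2 fold change 2.24, edgeR adjusted p = 0.000389). With 7 and 20 counts in vehicle it passed the filter only through its level in DB2115, and without vehicle library B its log2 fold change was 3.02. The forkhead factor FOXA1 fell to 0.831 and 1.16 CPM in DB2115, against 14.3 and 14.4 CPM in vehicle (log2 fold change -3.85, SE 0.17, edgeR adjusted p = 8.03e-10), and WT1 and NKX2-2 fell by 0.49 and 0.59 on the log2 scale (edgeR adjusted p = 2.04e-05 and 0.00357). Without vehicle library B the adjusted p of NKX2-2 was 0.067.

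The listed HOXC and HOXD genes differed in whether they were measurable at all. Of 8 HOXC genes listed, 5 were tested and 4 rose, where 32.7% of all genes tested did. Among them HOXC6 had 26.1 and 23.9 CPM in DB2115 and 12.7 and 12 CPM in vehicle (log2 fold change 1.02, edgeR adjusted p = 6.63e-07). Of 9 HOXD genes only HOXD8 could be tested, with 1 and 16 counts in DB2115 and 6 and 17 counts in vehicle, and it was not called (unadjusted p = 0.538, edgeR adjusted p = 0.604).

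**Figure D4:**
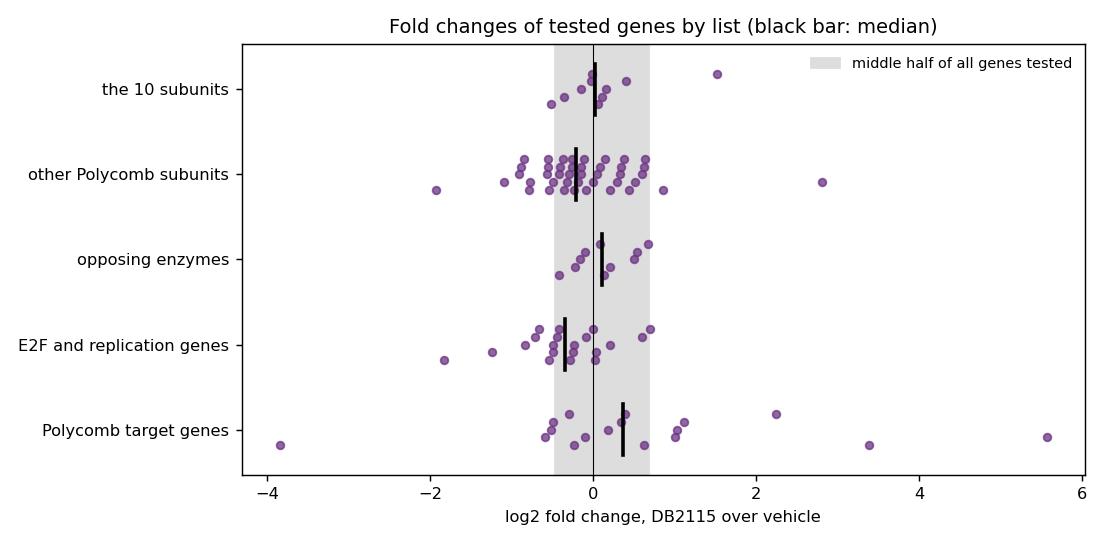
Log2 fold change of DB2115 over vehicle for the tested genes of each list (1 point per gene, offset vertically for legibility), with the list median as a black bar and the interquartile range of all genes tested, -0.48 to 0.68, in grey. The 10 subunits lie inside the grey band except CBX7 at 1.52 and EED at -0.52, and CDKN1C at 5.56 and FOXA1 at -3.85 lie at the ends of the Polycomb targets; GATA4, with no count in vehicle, is not drawn.

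**Figure D5:**
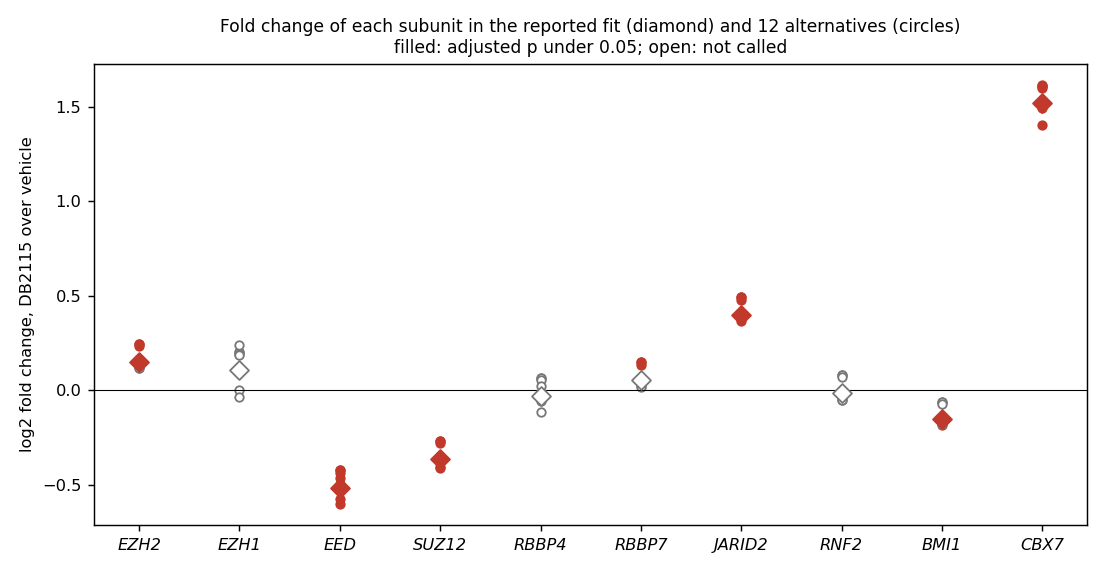
Log2 fold change of DB2115 over vehicle for each of the 10 subunits in the reported fit (diamond) and in 12 alternatives (circles), filled where the adjusted p was under 0.05 and open where not. CBX7, JARID2, EED and SUZ12 are filled throughout, while EZH2 and BMI1 have both filled and open symbols and EZH1, RBBP4 and RNF2 have open symbols on both sides of 0.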

How the data were processed

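The members and the gene lists were chosen with earlier results of these data known. The authors deposited raw read counts per gene for versioned Ensembl identifiers, not normalised. Build hg38 and the tools STAR, FastQC and DESeq2 appear, per the submitters' processing notes, without versions. The annotation, the counter and the use of strand are not stated in the sources used here. Symbols were matched for 58261 of 58381 identifiers, and positions and exon lengths came from GENCODE on GRCh38. Promoters were taken from RefSeq (GRCh38.p14).

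The third column of each group equalled the sum of the other 2 within 1% in 98.5% of genes with at least 200 counts and was left out. Low genes were removed by filterByExpr at its defaults, and libraries were scaled by TMM. That filter kept genes with a level matching about 10 counts in at least 2 libraries, and 15 counts in total. DB2115 was compared with vehicle over all 17219 genes with edgeR 4.0.16 in R 4.3.3 (glmQLFit, glmQLFTest), treatment being the only term, at a Benjamini-Hochberg adjusted p under 0.05. Levels are mean ± SD (n = 2) and 3 counts correspond to between 0.0725 and 0.0854 CPM. A standard error is the absolute log2 fold change divided by the root of F. All members are named; every other list is represented by its 3 largest called rises and 3 largest called falls at a mean level of 1 CPM or more, and by genes overlapping or paralogous to a member. KDM6A, KDM6B, CDKN2A, CDKN2B and the myeloid markers could be named at any value. Subunits named beyond this rule were chosen after their values were seen. In simulated counts for the same 17219 genes, 50 genes were altered at each fold. The share of altered genes recovered was 62% at 1.5-fold, 82% at 2-fold, 92% at 4-fold and 98% at 8-fold. Of 180 calls, 13 were false. In the data 64.1% of genes were called, far more than were altered in the simulation, so these rates do not carry over. For paralog ratios, scipy 1.17.1 gave exact permutation tests. Alternatives used DESeq2 1.42.0, limma 3.58.1, other scaling and filters, each library left out in turn, and a block on the column letter. Values of some listed genes are not reported here.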

Additional observations from a re-analysis of the deposited data

How the results depend on the processing

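CBX7, JARID2, EED and SUZ12 kept their direction and their call under all 12 alternatives, with log2 fold changes of 1.40 to 1.62, 0.37 to 0.49, -0.60 to -0.42 and -0.41 to -0.27. EZH2 was called in 5 of 12 (0.12 to 0.24) and BMI1 in 6 of 12 (-0.19 to -0.06). Among members not called, RBBP4 turned to 0.0639 with upper-quartile factors, 0.0645 with total counts, 0.0516 when 1 CPM in 3 libraries was required and ranged from -0.1136 to 0.0208 when 1 library was left out. RNF2 turned to 0.0813 with upper-quartile factors, 0.0813 with total counts and 0.0687 at 1 CPM in 3 libraries. EZH1 turned to -0.0019 without DB2115 library B and -0.0367 without vehicle library A. SPI1 lay between -0.1055 and 0.1920 when 1 library was left out. The cause was not tested. Upper-quartile factors moved the median log2 fold change of all genes by 0.09 and the calls to 6298 higher and 4699 lower, from 5634 and 5396. Leaving out 1 library in turn gave 4 to 5 members called and 2 to 5 Polycomb targets called lower (2 without vehicle library B, against 4 with all libraries). The difference in log2 ratio then lay between -0.1874 and 0.1187 for EZH1 to EZH2 and between -0.1697 and -0.0026 for RBBP4 to RBBP7. The column letters are not stated to pair libraries, and their deviations correlated at 0.046 across genes; with the letter as a replicate block 6 members were called, and 11424 genes against 11030 without it. With 2 libraries per group, the 1.11-fold differences of EZH2 and BMI1 were called in some settings only.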

Other observations

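Some Polycomb genes that lie near each other moved in opposite directions. PCGF2 (log2 fold change 2.80) and EPOP (-1.09) lie on chromosome 17, 58.5 kb apart on the minus strand. CBX7 (1.52) and CBX6 (-0.32) lie on chromosome 22, 247.9 kb apart, also on the minus strand. CBX2 and CBX8, which lie 4.1 kb apart on chromosome 17, were not called. These pairs were chosen after their values were seen.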
